A study of Mus musculus with 32 samples.

Results

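The data described here are the expression of 10 genes of the macrophage (MΦ) program: the ligand Csf1, the receptors Csf1r, Csf2ra, and Csf2rb, and the transcription factors Spi1, Spic, Irf8, Maf, Cebpa, and Cebpb. The genes were chosen by name from a table of 22850 genes, with no threshold on a measured value but with earlier results of these data known. All 10 were in the table, 9 of them under their own symbol and Spi1 under its older symbol Sfpi1.

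The 32 RNA-sequencing libraries came from islet β cells, endothelial cells (ECs), and MΦs of mice that carried the TetO-VEGF-A, RIP-rtTA, and MIP-GFP transgenes together and were 8 to 16 weeks old at the start. In these mice the rat insulin promoter (RIP) drives the transactivator rtTA, which in the presence of doxycycline (Dox) switches on the TetO-VEGF-A transgene, so that VEGF-A is overexpressed by β cells, and the mouse Ins1 promoter marks the same cells with GFP. Both control and treated groups carry all 3 transgenes, and by their labels the groups differ in Dox: none given (No Dox), Dox for 1 week (1wk Dox), or Dox for 1 week followed by 1 week of withdrawal (1wk WD). MΦs had 4, 2, and 4 libraries at these time points, β cells 4, 5, and 3, and ECs 4, 1, and 5. Dispersed islet cells were sorted on CD31 for ECs and on CD11b for MΦs, and β cells were the GFP+ cells of the fraction negative for both. CD11b is the product of Itgam, which other myeloid cells also carry, so that monocytes, neutrophils, and some dendritic cells can fall in the MΦ gate. Islets of more than 1 mouse went into every sample. The numbers in the column headers form 2 separate runs, of 28 and 4 libraries, and the labels do not say what a run stands for. In the sample titles the numbers of these 4 libraries follow the others without a gap. The run of 4 holds both MΦ libraries at 1wk Dox, the EC library at 1wk Dox, and β cell replicate 3 at 1wk WD, so that for MΦs and ECs 1wk Dox and the run cannot be told apart. No label ties samples to animals or days, and p-values therefore measure the spread between these samples.

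CSF1 and its receptor CSF1R, a tyrosine kinase, form the main survival and growth signal of tissue MΦs. The receptor of GM-CSF is built from an α chain, encoded by Csf2ra, and a β chain, encoded by Csf2rb, which IL-3 and IL-5 receptors also use. SPI1 (PU.1) is the ETS-family factor that sets up the myeloid program and acts at the Csf1r gene, together with C/EBP factors, and SPIC is a close relative of PU.1 best known from red pulp MΦs of the spleen and from the response to heme. IRF8 pairs with PU.1 in monocytes and dendritic cells, MAF (c-Maf) is a bZIP factor of mature resident MΦs, and C/EBPα and C/EBPβ are bZIP factors of myeloid commitment and of the response to inflammation. Resident MΦs of the islet are a long-lived population that sits beside capillaries and β cells.

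Deposited values were whole-number scores normalized by the study, with 1 as the lowest, and depth is unknown. Scores of a library summed to between 23465985 and 53441769. In MΦ libraries the summed score of 12 MΦ markers was 262584 to 359666 at No Dox. It was 439902 and 535888 in the 1wk Dox libraries and between 394726 and 469504 after withdrawal, and none of the 12 was at the lowest score throughout a group. In EC libraries, the leukocyte gene Ptprc (CD45) scored 12 to 100, against 27100 to 44259 in the 10 MΦ libraries. The 12 MΦ markers summed to 5379 to 6215 in No Dox ECs, 4745 in the 1wk Dox EC library, and 3629 to 5406 in ECs at 1wk WD. In β cell libraries Ptprc ranged from 7 to 3256. β cell No Dox replicates 1 and 2, with Ptprc at 33 and 7, stood apart from replicates 3 and 4, with Ptprc at 1616 and 1038 and with 7 stromal markers summing to 145417 and 516706 against 945 and 1026. Where leaving out replicates 1 and 2 changed a call or moved a printed difference by over 1.5 times, that value is given as well. In bulk samples of this kind, fewer cells of a type and less RNA per cell cannot be told apart.

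On mm9, Csf1 lies on the minus strand of chromosome 3 (chr3:107543966-107563387), Csf2ra on the minus strand of chromosome 19 (chr19:61300305-61304321), Csf2rb on the plus strand of chromosome 15 (chr15:78156420-78184277). Spi1 (chr2:90922547-90955913) and Cebpb (chr2:167514415-167515918) are both on the plus strand of chromosome 2, Spic is on the minus strand of chromosome 10 (chr10:88137517-88147760), Irf8 (chr8:123260258-123280594, plus) and Maf (chr8:118206842-118231694, minus) share chromosome 8, and Cebpa is on the plus strand of chromosome 7 (chr7:35904312-35906945). On this build, 3 members share exonic bases with a gene on the opposite strand, Csf1r with Hmgxb3, Cebpb with Tmem189, and Maf with the processed transcript Gm15655, and the strand of the counting is not stated. Reads of such pairs could not be told apart.

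RefSeq promoter sequence, on build GRCm38.p6, was at hand for 6 of the 10 members, and the 250 bases before the transcription start are shown for 3. Spic and Csf1 are shown because they were the members differentially expressed in MΦs at 1wk Dox, and Csf2ra because it was the receptor with the widest gap between MΦs and ECs. The windows are chr10:88683024-88683273 (minus strand), chr3:107760470-107760719 (minus strand), and chr19:61228419-61228668 (minus strand), read 5′ to 3′ in the direction of the gene. Capitals mark a match to 1 of 4 short motifs searched on both strands.
Spic: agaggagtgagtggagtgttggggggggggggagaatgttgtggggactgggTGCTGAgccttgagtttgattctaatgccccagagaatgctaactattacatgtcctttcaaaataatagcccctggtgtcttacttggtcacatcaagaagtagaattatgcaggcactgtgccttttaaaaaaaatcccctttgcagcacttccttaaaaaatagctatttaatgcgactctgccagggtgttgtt
Csf1: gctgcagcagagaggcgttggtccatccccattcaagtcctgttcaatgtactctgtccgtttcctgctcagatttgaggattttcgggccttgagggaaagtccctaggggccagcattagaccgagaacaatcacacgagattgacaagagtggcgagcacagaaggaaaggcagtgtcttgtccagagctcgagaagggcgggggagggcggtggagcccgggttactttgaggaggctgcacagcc
Csf2ra: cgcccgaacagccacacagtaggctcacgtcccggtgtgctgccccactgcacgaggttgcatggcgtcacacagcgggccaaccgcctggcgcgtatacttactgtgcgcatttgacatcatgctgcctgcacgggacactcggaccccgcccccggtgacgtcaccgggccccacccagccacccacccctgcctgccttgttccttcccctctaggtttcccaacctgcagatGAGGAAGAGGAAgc
The motifs were the PU.1 core GAGGAA, found in 23.4% of 32536 mouse promoter windows of this length, the MAF half-site TGCTGA in 16.1%, a pair of IRF sites (GAAA, any 2 bases, GAAA) in 2.98%, and the C/EBP motif TTGCNNAA in 9.57%. The Spic window held 1 MAF half-site, 198 to 193 bases before the start. The Csf1 window held none of the 4. In the Csf2ra window 2 PU.1 cores stood side by side, 14 to 9 and 8 to 3 bases before the start. These are matches of letters, not measured binding sites.

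At No Dox, 9 of the 10 genes were higher in MΦs than in β cells and 7 were higher in MΦs than in ECs. Csf1, the ligand, passed neither test. Differential expression was taken as a change of 2-fold or more with an adjusted p under 0.05 from limma. Against β cells, 43.2% of 16380 genes tested met this rule, 19.7% of genes tested being higher in MΦs, and against ECs 33.5% did, 17.6% higher. These shares are the background for the counts of members. The plot of each library relative to No Dox MΦs shows all 10 genes on 1 scale.

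**Figure D1:**
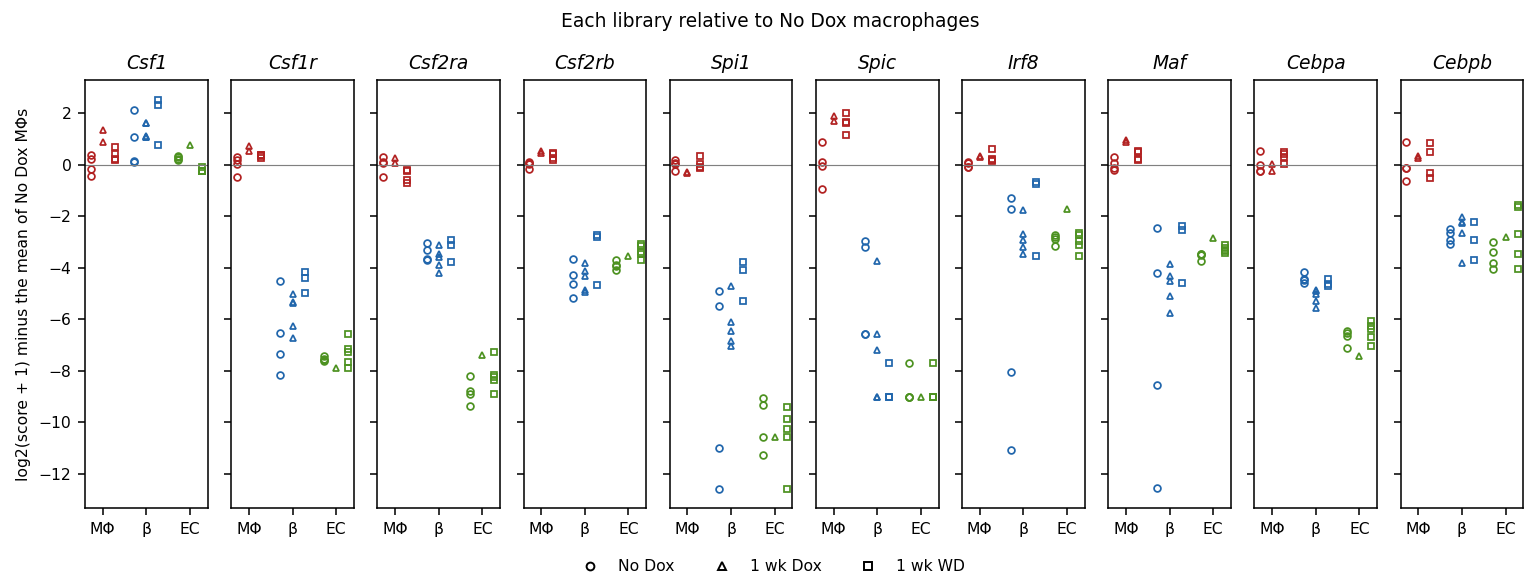
Each point is 1 library, plotted as log2(score + 1) minus the mean of the No Dox MΦ libraries, with MΦs in red, β cells in blue, and ECs in green and the time point given by the symbol. For Csf1 the MΦ and EC libraries overlap and β cells reach the highest points, for Spic the EC libraries sit at or near the lowest score, and for Spi1, Irf8, and Maf the No Dox β cell libraries spread over several log2 units.

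Csf1, the ligand, scored 852, 761, 483, and 572 in No Dox MΦs, 758, 828, 742, and 804 in ECs, and 706, 721, 1379, and 2786 in β cells. EC values lay inside the MΦ range, and β cells reached the highest level. The difference of MΦs from β cells was −0.86 on the log2 scale (SE 0.38, adjusted p = 0.0747) and from ECs −0.27 (SE 0.38, adjusted p = 0.620). Without β cell replicates 1 and 2, an alternative chosen after seeing the data, the first difference was −1.59 (adjusted p = 0.00105), and it also passed without replicate 1 alone (−1.11, adjusted p = 0.0310) and without replicate 2 alone (−1.10, adjusted p = 0.0320). At 1wk WD, Csf1 was lower in MΦs than in β cells by −1.49 (SE 0.33, adjusted p = 0.00183) and lower in ECs than in β cells by −2.08 (SE 0.32, adjusted p = 0.000114), while MΦs and ECs differed by 0.59 (SE 0.29, adjusted p = 0.107). The last difference had an adjusted p of 0.00375 when only the MΦ and EC libraries were fitted.

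Csf1r, the receptor of CSF1, scored 60872, 54993, 38674, and 65946 in No Dox MΦs, against 317, 279, 273, and 287 in ECs and 331, 186, 588, and 2366 in β cells. The MΦ libraries were 187-fold above ECs (log2 difference 7.54, SE 0.59, adjusted p = 8.37e-07) and 99.7-fold above β cells (6.64, SE 0.59, adjusted p = 3.26e-06), with no overlap. Without β cell replicates 1 and 2 the second difference was 5.52 (SE 0.43, adjusted p = 2.85e-06). β cells and ECs did not pass a test of their difference (−0.91, adjusted p = 0.221), which without that pair was −2.03 (adjusted p = 0.00261), and β cell replicate 4 stood above the other 3. Csf1r lies on the plus strand of chromosome 18, and its overlapping neighbor Hmgxb3 scored 7680 to 19005 in No Dox MΦs and 779 to 2293 in all β cell and EC libraries.

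Csf2ra, the α chain of the GM-CSF receptor, had a graded order, with MΦs above β cells and β cells above ECs. Scores were 17309, 25280, 29474, and 26129 in MΦs, 2929, 2426, 1883, and 1859 in β cells, and 53, 81, 35, and 50 in ECs. MΦs were 10.8-fold above β cells (3.43, SE 0.26, adjusted p = 1.06e-06) and 451-fold above ECs (8.82, SE 0.26, adjusted p = 8.72e-10), and ECs fell short of β cells by −5.39 (SE 0.26, adjusted p = 5.20e-08). Csf2rb, the shared β chain, scored 10734, 10227, 8990, and 10457 in MΦs, 598, 777, 677, and 655 in ECs, and 275, 802, 517, and 404 in β cells. Its MΦ level was 14.9-fold above ECs (3.90, SE 0.26, adjusted p = 2.42e-07) and 21.7-fold above β cells (4.44, SE 0.26, adjusted p = 1.96e-07), and ECs and β cells overlapped (0.54, adjusted p = 0.108). Without β cell replicates 1 and 2, Csf2rb was higher in ECs than in β cells by 0.56 (SE 0.16, adjusted p = 0.0143), under 2-fold. Csf2rb2, the mouse paralog of Csf2rb that serves IL-3 alone, scored 4906, 5165, 6223, and 5561 in No Dox MΦs, 137 to 239 in ECs, and 7 to 393 in β cells. Reads of these near-identical copies may have been shared between them in counting.

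Spi1 scored 13702, 12600, 10214, and 12852 in No Dox MΦs, 7, 4, 22, and 18 in ECs, and 1, 5, 271, and 413 in β cells. The log2 difference of MΦs was 10.06 from ECs (SE 1.46, adjusted p = 0.000138) and 8.49 from β cells (SE 1.46, adjusted p = 0.000431). The β cell libraries fell into a pair near the lowest score and a pair at 271 and 413, and without the first pair MΦs were above β cells by 5.19 (SE 0.54, adjusted p = 2.20e-05). Spic scored 544, 1118, 1903, and 1002 in MΦs and 132, 113, 10, and 10 in β cells, and in ECs it was listed at the lowest score of 1 in replicates 1, 3, and 4 and at 4 in replicate 2. MΦs were 28.2-fold above β cells (4.82, SE 0.87, adjusted p = 0.000610), and by 6.56 on the log2 scale without β cell replicates 1 and 2 (SE 0.63, adjusted p = 1.23e-05). Spic thus had its higher β cell scores in replicates 1 and 2, the pair in which Spi1 was near the lowest score.

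Irf8, the partner of PU.1, scored 474, 570, 600, and 634 in ECs, against 4459, 3986, 4041, and 4586 in MΦs and 15, 1, 1298, and 1725 in β cells. Maf scored 1096, 889, 1079, and 1059 in ECs, against 10985, 12545, 14597, and 10511 in MΦs and 31, 1, 648, and 2182 in β cells. MΦs and ECs did not overlap for either gene, but neither difference passed in the fit of all 3 cell types (Irf8 2.91, SE 1.73, adjusted p = 0.205; Maf 3.55, SE 1.63, adjusted p = 0.103), in which the spread of the β cell libraries is shared. With only the MΦ and EC libraries fitted, the same differences had an SE of 0.13 each and adjusted p-values of 3.45e-08 and 1.24e-08. Against β cells MΦs were higher by 5.53 for Irf8 (SE 1.73, adjusted p = 0.0177) and by 6.95 for Maf (SE 1.63, adjusted p = 0.00355), and without β cell replicates 1 and 2 by 1.51 and 3.34 (adjusted p = 3.81e-05 and 3.08e-05). At 1wk WD the differences of MΦs from ECs passed in the fit of all 3 cell types (Irf8 3.30, SE 0.47, adjusted p = 4.35e-05; Maf 3.64, SE 0.35, adjusted p = 9.35e-07).

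Cebpa scored 3556, 3062, 3097, and 5257 in No Dox MΦs, 150, 162, 203, and 167 in β cells, and 35, 25, 38, and 41 in ECs, so the 3 cell types did not overlap. MΦs were above β cells by 4.42 (SE 0.26, adjusted p = 1.98e-07), and ECs were below β cells by −2.28 (SE 0.26, adjusted p = 2.56e-05). Cebpb was low in every group, with 106, 153, 311, and 154 in MΦs, 19, 21, 26, and 29 in β cells, and 9, 15, 20, and 11 in ECs. MΦs were above β cells by 2.78 (SE 0.45, adjusted p = 0.000286) and above ECs by 3.57 (SE 0.45, adjusted p = 4.66e-05). Tmem189, which shares exonic bases with Cebpb, scored 1440 to 1834 in the same MΦs.

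Between ECs and β cells at No Dox, 3 of the 10 members were differentially expressed, all lower in ECs (Cebpa, Spic, and Csf2ra), beside 37.7% of all genes, 21.2% lower. Without β cell replicates 1 and 2 the count was 7, with Spi1, Irf8, Csf1, and Csf1r then also lower in ECs. Spi1 went from −1.57 (adjusted p = 0.398) to −4.87 (adjusted p = 4.10e-05) and Csf1 from −0.60 (adjusted p = 0.217) to −1.32 (adjusted p = 0.00376). Irf8 turned direction, from 2.62 (adjusted p = 0.231) to −1.40 (adjusted p = 7.57e-05), and Maf went from 3.40 (adjusted p = 0.106) to −0.21 (adjusted p = 0.668). At 1wk WD, 9 members were higher in MΦs than in β cells and Csf1 was lower (46.2% of 16435 genes, 19.2% higher and 27% lower), 9 were higher in MΦs than in ECs (40.3%, 20.8% higher), and 6 were lower in ECs than in β cells (39.9%, 25.2% lower). The 6 were Spi1, Irf8, Cebpa, Csf1, Csf1r, and Csf2ra.

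After 1 week of Dox, MΦs had more Spic, Csf1, and Maf transcript relative to No Dox, and the other 7 members did not pass the test. Of the 10, Spic and Csf1 (2 members) were differentially expressed, both higher, beside 2.26% of 15014 genes tested, 1.61% higher and 0.653% lower. With Maf, 3 members had an adjusted p under 0.05, beside 4.58% of all genes, 2.7% higher and 1.88% lower. The median log2 fold change of the 10 members was 0.40, against 0.03 over all genes tested. The plot of MΦ scores shows each library.

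**Figure D2:**
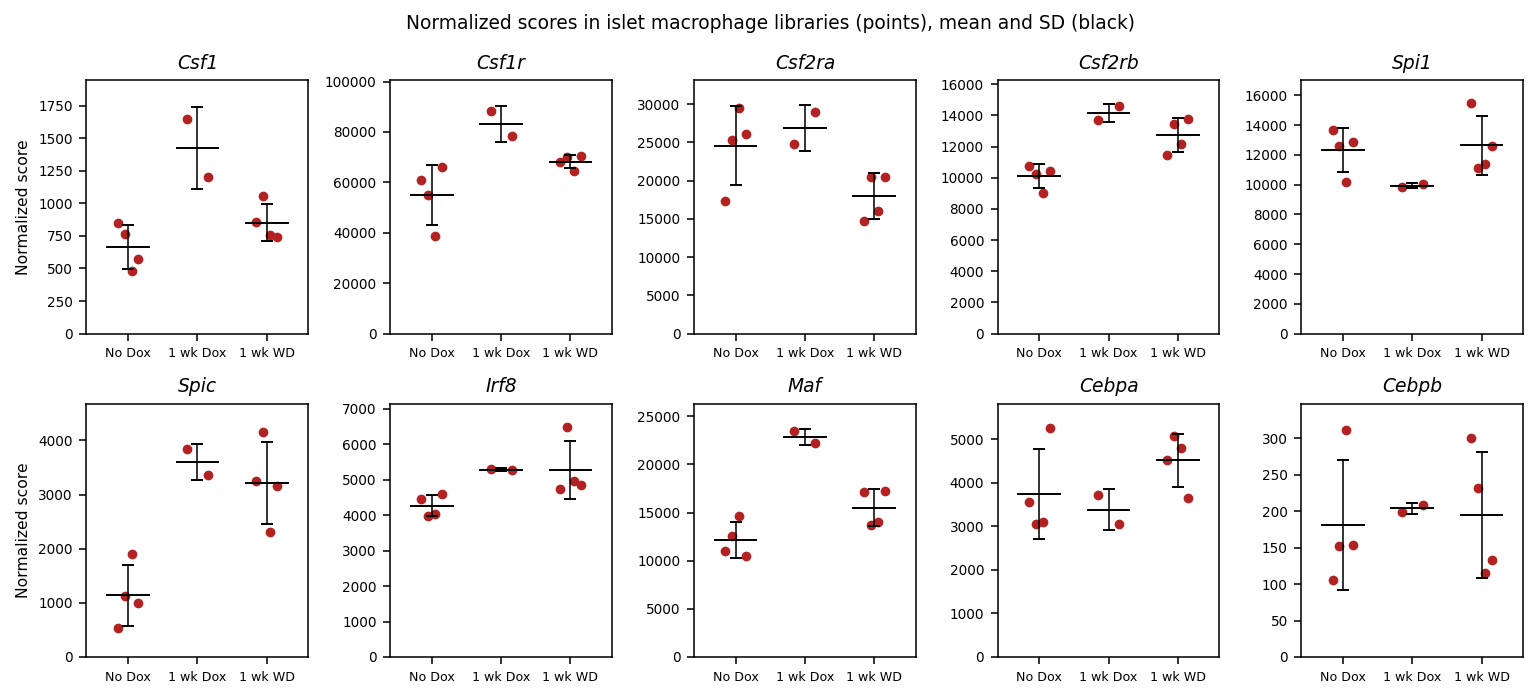
Each panel gives the normalized score of 1 gene in the MΦ libraries (points) at No Dox (n = 4), 1wk Dox (n = 2), and 1wk WD (n = 4), with the mean and SD in black and the axis starting at 0. Spic was above every No Dox library at both later time points, and Csf1 and Maf were above every No Dox library at 1wk Dox.

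Spic scored 3837 and 3360 at 1wk Dox against 544, 1118, 1903, and 1002 at No Dox, and 3246, 4152, 2301, and 3159 at 1wk WD. Neither later group overlapped No Dox. The change was 3.46-fold at 1wk Dox (log2 1.79, SE 0.37, adjusted p = 0.0206) and 3.03-fold at 1wk WD (1.60, SE 0.30, adjusted p = 0.0286). From 1wk Dox to 1wk WD it was −0.19 (SE 0.37, adjusted p = 0.950), with the 2 libraries of 1wk Dox inside the range of 1wk WD.

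Csf1 scored 1646 and 1202 at 1wk Dox against 852, 761, 483, and 572 at No Dox, a change of 2.16-fold (1.11, SE 0.26, adjusted p = 0.0321), and 855, 1053, 759, and 741 at 1wk WD. The 1wk WD libraries overlapped No Dox (0.37, SE 0.21, adjusted p = 0.383) and lay below both libraries of 1wk Dox (−0.74, SE 0.26, adjusted p = 0.368). Maf scored 23437 and 22244 at 1wk Dox against 10985, 12545, 14597, and 10511 at No Dox, a change of 1.89-fold (0.92, SE 0.17, adjusted p = 0.0124), and 17123, 13752, 13983, and 17209 at 1wk WD. It too stood between the other groups at 1wk WD, with changes of 0.36 from No Dox (SE 0.14, adjusted p = 0.206) and −0.57 from 1wk Dox (SE 0.17, adjusted p = 0.271).

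These calls rested on both 1wk Dox libraries, which also make up a numbering run apart from every other MΦ library, so that no value within a run could be had. Without replicate 4 the adjusted p-values of Spic, Csf1, and Maf were 0.403, 0.549, and 0.329, and 0 of all genes were differentially expressed. Without replicate 5 they were 0.108, 0.101, and 0.0852, with 49 genes differentially expressed in place of 340. In both cases the single library left was assumed to vary like the other groups. Csf1 also had an adjusted p of 0.0537 without No Dox replicate 4. With every library kept, the calls of Spic, Csf1, and Maf were also lost in other fits. These were the fits without the trend on the spread, with the replicate block, and with only the 2 groups fitted. The fold changes kept their direction with each library left out, from 1.48 to 2.08 for Spic, 0.88 to 1.34 for Csf1, and 0.85 to 1.01 for Maf on the log2 scale.

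Among the receptors, Csf1r scored 88375 and 78271 at 1wk Dox, above all 4 No Dox libraries, with a change of 0.62 that did not pass (SE 0.21, adjusted p = 0.110). Hmgxb3 scored 11521 and 13873 in the same 2 libraries. Csf2rb scored 13723 and 14580, also above all No Dox libraries (0.49, SE 0.14, adjusted p = 0.0609), and its adjusted p was 0.0456 when genes with a mean under 200 were left out. Csf2rb2 scored 6854 and 7426, above its No Dox range as well. Csf2ra scored 24790 and 29028, inside the No Dox range (0.15, adjusted p = 0.734).

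Among the other transcription factors, Spi1 scored 9833 and 10055 at 1wk Dox, below every No Dox library (−0.30, SE 0.17, adjusted p = 0.326), and Irf8 scored 5313 and 5261, above every No Dox library (0.31, SE 0.15, adjusted p = 0.259). Cebpa scored 3718 and 3050 (−0.12, adjusted p = 0.812) and Cebpb 199 and 209 (0.29, adjusted p = 0.790), both inside the No Dox range. In all, 6 members lay wholly above No Dox and 1 wholly below. With 2 libraries in 1 group, 30.9% of all genes had groups that did not overlap, 16.2% higher and 14.7% lower.

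At 1wk WD, Spic was the only member that passed the test against No Dox, beside 0.626% of genes differentially expressed, 0.42% higher, and 1.23% with an adjusted p under 0.05, 0.793% higher and 0.433% lower. At an unadjusted p under 0.05 there were 5 members, beside 17.3% of genes. The call of Spic was lost with any of the 4 withdrawal libraries left out, with adjusted p-values of 0.0505, 0.107, 0.0545, and 0.0858 without replicates 1, 2, 3, and 4, and it was 0.0514 without No Dox replicate 4. Its fold change stayed between 1.29 and 1.89 on the log2 scale. Irf8 (4748, 6489, 4976, and 4852) and Csf2rb (11456, 13475, 12171, and 13790) were also above every No Dox library, with changes of 0.29 (SE 0.12, adjusted p = 0.249) and 0.33 (SE 0.11, adjusted p = 0.151). In this comparison 9.24% of all genes did not overlap, 4.98% higher, and Spic, Irf8, and Csf2rb were the 3 members among them.

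Spi1 scored 15469, 11127, 11357, and 12580 at 1wk WD (0.03, adjusted p = 0.933), and Csf1r 67905, 69938, 64649, and 70526 (0.34, adjusted p = 0.339). The Csf1r libraries at 1wk WD were close to one another, with an SD of 3.89% of the mean against 21.5% at No Dox. Csf2ra scored 14737, 20531, 16076, and 20518, the time point with the lowest mean (−0.44, SE 0.18, adjusted p = 0.228), and below both 1wk Dox libraries (−0.59, SE 0.22, adjusted p = 0.384). Cebpa scored 4515, 5080, 4801, and 3658 (0.30, adjusted p = 0.411), and Cebpb 300, 232, 115, and 133 (0.11, adjusted p = 0.912).

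Between 1wk Dox and 1wk WD no member passed in limma, where 0.0866% of genes were differentially expressed (0.02% higher and 0.0666% lower) and 0.0999% had an adjusted p under 0.05 (0.0266% higher and 0.0733% lower). Only 3 members (Maf, Csf1, and Csf2ra, all lower at 1wk WD) had an unadjusted p under 0.05, as 9.7% of all genes did. Spi1 lay wholly above the 1wk Dox libraries and Maf, Csf1, Csf1r, and Csf2ra wholly below, beside 30% of all genes without overlap. The comparisons of 1wk Dox and of 1wk WD with No Dox share the 4 No Dox libraries, and those with 1wk Dox share its 2 libraries.

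Markers of cell types moved within the MΦ libraries at the same time points. Of 12 MΦ markers, 6 were higher at 1wk Dox with an adjusted p under 0.05 (Cd68, Mpeg1, Aif1, Fcgr1, C1qb, and C1qc), and Cd68 and Aif1 were at 1wk WD. Itgam, the gene of the sort marker CD11b and also 1 of the 12, did not pass, with 29382 to 45478 at No Dox, 21379 and 22708 with Dox, wholly below, and 20309 to 29800 after withdrawal. Of 7 dendritic markers, Flt3 (−0.97, adjusted p = 0.0101) and Siglech (−1.46, adjusted p = 0.00789) were lower at 1wk Dox, and Siglech was at 1wk WD (−0.83, adjusted p = 0.0495). The dendritic list summed to 41106 to 50028 at No Dox, 37607 and 37831 with Dox, and 33160 to 51188 after withdrawal, 4 monocyte markers to 20208 to 27511, 17508 and 19477, and 16947 to 25410, and 7 neutrophil markers to 1743 to 3667, 2425 and 2725, and 2409 to 3620. Of 6 acinar markers, Cpa1 and Pnlip were lower at 1wk Dox, and the acinar sum ranged from 19422 to 9853485 in No Dox MΦs against 945 and 2959 at 1wk Dox. At 1wk WD all 6 acinar markers had an unadjusted p under 0.05 with a median change of −6.17, none passed after adjustment, and their sum was 1394 to 170749. The 9 endothelial markers summed to 2881 and 3519 at 1wk Dox, above the 1289 to 1823 of No Dox, with 4 of 8 tested at an unadjusted p under 0.05 and none passing. The 7 lymphocyte markers summed to 280 to 489 at No Dox and 465 to 1425 at 1wk WD, with a median change of 1.45, 2 of 6 tested at an unadjusted p under 0.05, and none passing. The 7 stromal markers were all higher at 1wk WD, with a median change of 1.04, 4 at an unadjusted p under 0.05, and none passing, and summed to 3031 to 5952 without Dox, 4849 and 6925 with Dox, and 2697 to 10868 after withdrawal. The changes that passed at 1wk Dox were all lost with replicate 4 left out, and of the calls at 1wk WD Cd68 was kept in 3 of 8 fits with 1 library left out, Siglech in 2, and Aif1 in 1. The part of these cell types in the changes of Spic, Csf1, and Maf was not tested.

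In ECs, Csf1 was the member that changed at 1wk WD, and it was lower. It scored 617, 547, 543, 547, and 549 against 758, 828, 742, and 804 at No Dox, with no overlap, a difference of −0.48 on the log2 scale (SE 0.12, adjusted p = 0.0423). No member was differentially expressed, beside 1.76% of 14167 genes tested, 1.28% being higher, and 1 of 8 tested had an adjusted p under 0.05, beside 3.9% of all genes, 2.28% higher and 1.62% lower. An unadjusted p under 0.05 was found for 3 of the 8, as for 21.9% of genes. Spi1 and Spic were below the minimum mean score of 20 and were not tested. The call of Csf1 was lost in 8 of 9 fits with 1 library left out, with adjusted p-values from 0.0509 to 0.144, and kept without 1wk WD replicate 1 (0.0483). Every one of these fits gave a decrease, from −0.52 to −0.45.

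Csf2rb scored 1200, 774, 1132, 901, and 960 in ECs at 1wk WD, with replicate 2 inside the No Dox range (0.54, SE 0.15, adjusted p = 0.0678), and its adjusted p was 0.0369 without that replicate. Maf scored 1192, 1294, 1215, 1401, and 1115, above all No Dox libraries (0.27, SE 0.12, adjusted p = 0.202). In this comparison 10.7% of all genes did not overlap, 5.75% higher and 4.91% lower, and Maf and Csf1 were the members among them. Irf8 scored 647, 545, 668, 360, and 482 (−0.10, adjusted p = 0.786), and Csf1r 572, 345, 224, 264, and 375 (0.23, adjusted p = 0.614). Csf2ra scored 49 to 153 (0.62, adjusted p = 0.340), Cebpb 9 to 56 (0.88, adjusted p = 0.410), and Cebpa 27 to 53 (0.20, adjusted p = 0.770). Spic was at 1 in all 1wk WD libraries except replicate 3, which was at 4. In the same comparison, 1 of 9 endothelial markers was lower (Kdr, the VEGF-A receptor VEGFR2, −0.98, adjusted p = 0.00348), 1 of 3 markers of other islet endocrine cells was lower (Ppy, −3.30, adjusted p = 0.0333), 5 of 6 acinar markers were lower, and 4 of 7 stromal markers were higher (Col1a1, Col1a2, Col3a1, and Rgs5). With 1 library left out, Kdr, Col1a2, and Col3a1 kept their calls in 9 of 9 fits, Ctrb1 in 8, Rgs5 in 7, Cpa1, Cela1, and Cela2a in 5, Pnlip in 4, Ppy in 3, and Col1a1 in 2. The part of these cells in the change of Csf1 was not tested.

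The 1wk Dox ECs were a single library, of the same separate run as the 1wk Dox MΦs, given with no test. Csf1 was 1103, above the No Dox range of 742 to 828 (0.50 above the No Dox mean on the log2 scale), while at 1wk WD it was below that range. Irf8 was 1288 (1.18 above), Maf 1692 (0.72 above), Csf2rb 866 (0.36 above), Csf2ra 142 (1.42 above), and Cebpb 23 (0.76 above). Cebpa at 20 and Csf1r at 224 were below their No Dox ranges, and Spi1 at 7 and Spic at 1 were inside. So 8 members were outside the No Dox range, beside 62.1% of 14047 genes, and Irf8 and Csf2ra were past 2-fold, as 10.7% of genes were.

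The response to withdrawal did not pass a test of its difference between MΦs and ECs for any member in limma, beside 1.4% of 15603 genes differentially expressed and 2.13% with an adjusted p under 0.05. At an unadjusted p under 0.05 there were 3 members, beside 21.2% of genes. They were Csf1, higher by 0.37 in MΦs and lower by −0.48 in ECs (difference 0.86, SE 0.23, adjusted p = 0.0656), Spic (1.67, SE 0.62, adjusted p = 0.144), and Csf2ra (−1.06, SE 0.40, adjusted p = 0.146). Csf1 passed without MΦ No Dox replicate 1 (adjusted p = 0.0323) or replicate 2 (0.0479). The plot of changes within cell types sets MΦs and ECs side by side.

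**Figure D3:**
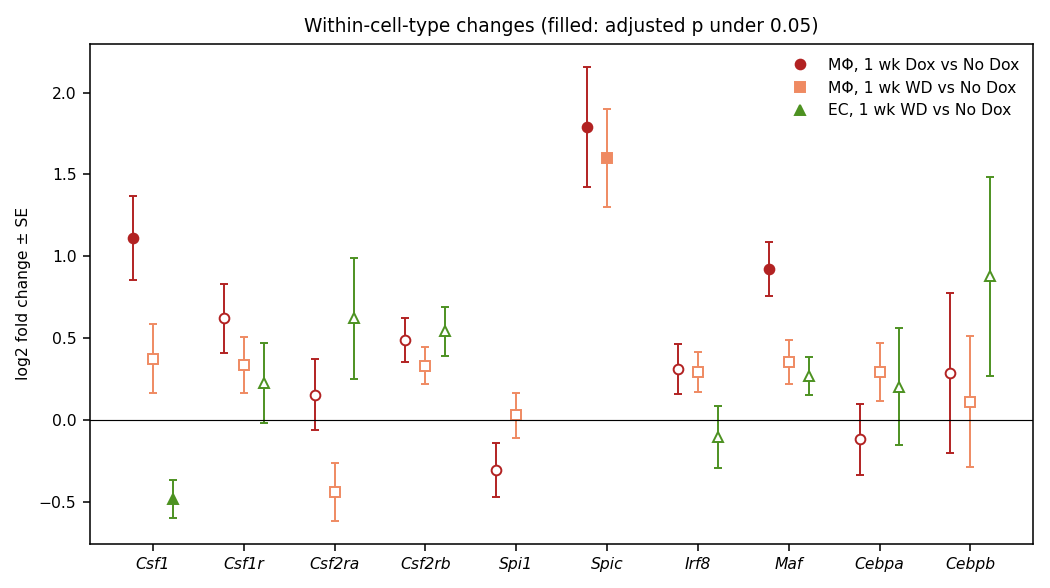
Points are limma log2 fold changes on the log2(score + 1) scale with bars of 1 SE, for MΦs at 1wk Dox (circles) and 1wk WD (squares) and ECs at 1wk WD (triangles), each against No Dox, and filled symbols have an adjusted p under 0.05. Spic at 1.79 and 1.60 is the highest in MΦs, Csf1 at −0.48 is filled for ECs, and Spi1 and Spic have no EC point because they were below the minimum score.

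In β cells no member changed in limma at either time point. At 1wk Dox against No Dox 0.0122% of 16346 genes were differentially expressed, and 1 member (Cebpa) had an unadjusted p under 0.05, as 6.99% of genes did. At 1wk WD against No Dox 0% were, and 3 members (Spi1, Spic, and Csf1r) had an unadjusted p under 0.05, as 8.17% of genes did. At 1wk WD against 1wk Dox 0% were, and 0 members had an unadjusted p under 0.05, as 6.31% of genes did.

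Spi1 scored 1, 5, 271, and 413 in No Dox β cells, 106, 91, 138, 470, and 176 with Dox for 1 week, and 899, 725, and 314 after withdrawal, a difference of 4.11 from No Dox at 1wk WD (SE 1.61, adjusted p = 0.601). Without No Dox replicates 1 and 2 it was 0.82 (SE 0.71, adjusted p = 0.932). Csf1r scored 331, 186, 588, and 2366, then 1650, 702, 1322, 1294, and 508, then 3040, 2534, and 1687 (2.12, SE 0.71, adjusted p = 0.563), and 0.99 without the pair (adjusted p = 0.884). Irf8 scored 15, 1, 1298, and 1725, then 561, 464, 649, 1252, and 382, then 2541, 2642, and 363, and Maf 31, 1, 648, and 2182, then 823, 348, 528, 597, and 222, then 2328, 2084, and 500. For all 4 genes No Dox replicates 1 and 2 had the 2 lowest scores of the 12 libraries.

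Markers of other cell types also differed across the β cell libraries. Ptprc scored 33, 7, 1616, and 1038 at No Dox, 377, 244, 298, 3256, and 326 with Dox for 1 week, and 3096, 1160, and 528 after withdrawal. The 12 MΦ markers summed to 913, 440, 3187, and 6314 without Dox, 1557 to 3504 with Dox, and 8653, 8145, and 7645 after withdrawal. The 7 dendritic markers summed to 420, 286, 4297, and 6095, then 1300 to 4712, then 11060, 8036, and 1889, and Irf8 at 1wk WD was likewise high in replicates 1 and 2 and low in replicate 3. The 7 stromal markers summed to 945, 1026, 145417, and 516706, then 102525 to 481408, then 351081, 318455, and 24169, and Csf1 and Maf at 1wk WD were also lowest in replicate 3. The 6 acinar markers summed to 26435 to 10429614, then 189 to 18113, then 308 to 479580, and the 7 lymphocyte markers to 81 to 1169, then 90 to 9931, then 99 to 6024. The 9 endothelial markers summed to 1862, 1399, 3884, and 6484 at No Dox, 45421, 15368, 20604, 5222, and 1236 at 1wk Dox, and 3594 to 15120 after withdrawal. Csf1 at 1wk Dox was highest in replicates 1 and 3 and lowest in replicate 2 (1370), near replicates 4 and 5 (1382 and 1386). At that time point the MΦ and stromal sums were instead highest in replicates 1 and 4. The part of other cells in these values was not tested.

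**Figure D4:**
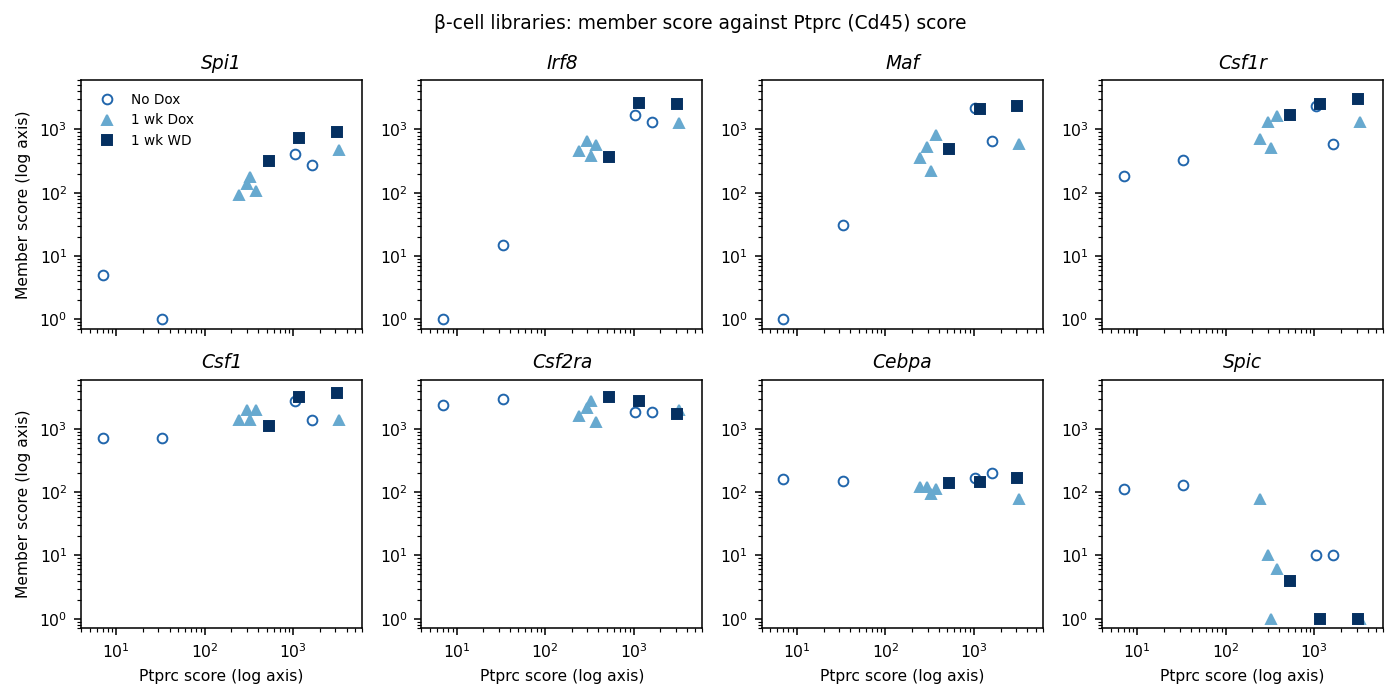
Each panel plots the score of 1 gene against the Ptprc score in the 12 β cell libraries on log axes, with No Dox as open circles, 1wk Dox as triangles, and 1wk WD as squares. Spi1, Irf8, Maf, and Csf1r were lowest where Ptprc was 7 and 33, Csf2ra stayed between 1302 and 3195 and Cebpa between 77 and 203 in all 12, and Spic was highest where Ptprc was 7 and 33.

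Of the members, 6 (Csf1, Csf1r, Csf2ra, Csf2rb, Cebpa, and Cebpb) were above the lowest score in every β cell library, also where Ptprc was 7 and 33. Csf2ra scored 2929 and 2426 in No Dox replicates 1 and 2 and 1883 and 1859 in replicates 3 and 4. It was 1302 to 2743 with Dox and 1746 to 3195 after withdrawal. Cebpa scored 150, 162, 203, and 167, then 111, 122, 123, 77, and 92, then 167, 147, and 138, with 1wk Dox wholly below No Dox (−0.71, SE 0.31, adjusted p = 0.700), where 1.47% of genes were. Set against the mean of No Dox MΦs, the No Dox β cell libraries held 7.57% to 11.9% of the Csf2ra score, 4.01% to 5.42% of Cebpa, 2.72% to 7.94% of Csf2rb, 10.5% to 16.02% of Cebpb, and 106% to 418% of Csf1, while the summed MΦ markers were at 0.140% to 2.005%. Csf1r was at 0.337% to 4.29% on the same scale.

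Csf1 in β cells scored 706, 721, 1379, and 2786 at No Dox, 1986, 1370, 1972, 1382, and 1386 with Dox for 1 week, and 3723, 3238, and 1095 after withdrawal. The difference at 1wk WD was 1.00 (SE 0.51, adjusted p = 0.614), and 0.27 without No Dox replicates 1 and 2 (adjusted p = 0.984). Csf2rb scored 1429, 1500, and 397 at 1wk WD against 275, 802, 517, and 404 (1.03, SE 0.51, adjusted p = 0.610). Without 1wk WD replicate 3, the library of the separate run, the differences from No Dox were 1.55 for Csf1 (adjusted p = 0.2985), 1.66 for Csf2rb (adjusted p = 0.278), 4.57 for Spi1 (adjusted p = 0.317), and 2.36 for Csf1r (adjusted p = 0.302). Spic fell within No Dox from 132 and 113 in replicates 1 and 2 to 10 in replicates 3 and 4, was 6, 77, 10, 1, and 1 with Dox for 1 week, and 1, 1, and 4 after withdrawal (−3.76, SE 1.39, adjusted p = 0.596), with 1wk WD wholly below No Dox, where 3.1% of genes were. Without No Dox replicates 1 and 2, Spic was below the minimum score and not tested.

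Other genes of these pathways were taken from 3 lists, of other myeloid transcription factors (42 genes, 40 found), other CSF-family ligands and receptors (13 found), and signaling downstream of CSF receptors (34 found). In MΦs at 1wk Dox, 4 of 83 genes tested were differentially expressed, all higher, and 2 more were lower with an adjusted p under 0.05, beside 1.61% of all genes for the first rule and 1.88% for the second. Among 40 transcription factors, Tfec, a relative of MITF that is found in MΦs, rose from 749 ± 380 (SD, n = 4) to 3586 ± 1027 (SD, n = 2), a change of 2.37 (SE 0.39, adjusted p = 0.0101). Nr1h3, the liver X receptor α that responds to oxysterols, rose from 206 ± 61.4 to 621 ± 101 (1.63, SE 0.32, adjusted p = 0.0181). Irf7, the interferon-response factor, rose from 675 ± 149 to 1755 ± 340 (1.39, SE 0.23, adjusted p = 0.0101). Irf4 was lower, from 10557 ± 1648 to 5761 ± 382 (−0.86, SE 0.17, adjusted p = 0.0193). The median of the list was −0.04, against 0.03 over all genes.

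Of 9 other CSF-family genes tested in MΦs, Flt3, the receptor of FLT3 ligand on dendritic cells, was lower at 1wk Dox, from 6343 ± 937 to 3229 ± 354. Of 34 signaling genes, Tyrobp, which encodes the adaptor DAP12, rose from 12060 ± 3956 to 23518 ± 4368 (1.01, SE 0.24, adjusted p = 0.0350). All 6 calls of the 3 lists at 1wk Dox were lost without 1wk Dox replicate 4 or without replicate 5, and Tyrobp also without No Dox replicate 1. At 1wk WD, 0 of 83 were differentially expressed in limma and 19 had an unadjusted p under 0.05, beside 17.3% of all genes. Irf7 was higher with an adjusted p under 0.05 but a change under 2-fold (1.00, SE 0.19, adjusted p = 0.0286), and it kept this call in 3 of 8 fits with 1 library left out. From 1wk Dox to 1wk WD none of the 83 passed in limma and 12 had an unadjusted p under 0.05, beside 9.7% of all genes.

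In ECs at 1wk WD, 3 of 76 listed genes were lower with an adjusted p under 0.05, beside 1.62% of all genes lower and 3.9% in either direction, and none was differentially expressed. They were Id1 (5781 ± 589 to 3148 ± 724, −0.91, adjusted p = 0.0141) and Id3 (−0.60, adjusted p = 0.0365), inhibitors of bHLH factors, and Zbtb46 (−0.40, adjusted p = 0.0375), a factor of dendritic cells that ECs also express. With 1 library left out, Id1 kept its call in 8 of 9 fits, Id3 in 4, and Zbtb46 in 1. In β cells, 0 of 82 listed genes passed at 1wk Dox or 1wk WD in limma, and 8 and 14 had an unadjusted p under 0.05, beside 6.99% and 8.17% of all genes.

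Across all 32 libraries, the genes whose log2(score + 1) was most like that of each member were found by Pearson correlation among 16968 genes. This is a description over libraries that fall into 3 cell types and sorts, with depth unknown. The 3 most like Spi1 were Nlrp1b, Itgax, and Laptm5 (r = 0.99 for the first), and those most like Csf1r were the lysosomal protease genes Ctsh and Ctss, with Efhd2 (r = 0.99). Those of Csf2ra were Itga4, Fam105a, and Frrs1, of Csf2rb Npc1, Cdh23, and Lgmn, and of Cebpa Plek, Arrb2, and Rnf149. Those of Irf8 were Cmklr1, 1300014I06Rik, and Mnda, of Maf A630001G21Rik, Creb5, and Sp140, and of Cebpb Clec4d, Gmfg, and Rp2h (r = 0.94 for the first). For Spic they were Snx5, Atp7a, and P2ry13 (r = 0.96 for the first). The genes most like Csf1 were Ephb3, Vgll3, and Insc, with r = 0.87 for the first, the lowest of the 10 members.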

How the data were processed

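RNA of sorted β cells, ECs, and MΦs was amplified and sequenced by the authors as 50 bp paired-end reads, which were aligned to mm9 with TopHat2 v2.0 and then TMM-normalized with Avadis NGS. What the authors deposited is a score per gene and library, a whole number no lower than 1, so that depth and the precision of low scores are unknown. Of 38 sample columns, 32 belong to the labelled samples, and 6 were not used. Spi1 was matched through a RefSeq synonym, and 25 symbols turned into dates were restored by gene identifier.

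For testing, log2(score + 1) entered a linear model in limma (version 3.58.1 under R 4.3.3, moderated with a trend). Genes entered where 1 or more of the groups fitted had a mean of 20 or higher, with Benjamini-Hochberg adjustment over all of these genes. Fold changes are on this scale and understate low genes. Fits within MΦs and β cells took 3 time points, that of ECs No Dox and 1wk WD, and fits between cell types took all 3 cell types at 1 time point. The single 1wk Dox EC library was described only. The pipeline was tested on simulated scores. The members and gene lists were chosen with earlier results of these data known. Named genes are the members, listed genes that passed (up to 4 per list and comparison at 2-fold), the 3 genes most like each member, and markers where they touch a result. Listed genes with an adjusted p under 0.05 but under 2-fold, and Hmgxb3, Tmem189, and Csf2rb2 beside the members they overlap or resemble, were named after their values were seen. The values of 1 listed gene are not reported here.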

Additional observations from a re-analysis of the deposited data

Results flagged for a closer look

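Dixon's test of the highest and lowest library was applied to each member in each group of 4 or 5 libraries, 60 tests in all, and 5 stood out, where chance gives about 1 in 20. Irf8 in 1wk WD MΦs was 6489 in replicate 2, above the other 3 libraries. Maf in No Dox ECs was 889 in replicate 2, below the others. Csf1 in 1wk WD ECs was 617 in replicate 1, above the others but still below every No Dox library. Spic was 4 in No Dox EC replicate 2 and 4 in 1wk WD EC replicate 3, in both cases beside libraries at the lowest score of 1.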

How the results depend on the processing

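Of 653 results recomputed under an alternative, 563 were labelled the same. A log2 fold change counted as the same if it kept its direction and its side of the threshold. Most of the 653 were counts of members, which counted as the same when near the main count, even where members crossed the threshold. For example, the 7 members differentially expressed in MΦs against ECs at No Dox ranged from 6 to 9. Over all 10 members, comparisons, and alternatives, 44 of 2065 differences changed sign, none of which had an adjusted p under 0.05 to begin with, and 2 of which passed in the other direction. These were Irf8 in ECs against β cells at No Dox, from 2.62 to −1.40 without β cell replicates 1 and 2, and Csf2rb in ECs against β cells at 1wk WD, from 0.05 to −0.58 without β cell 1wk WD replicate 3 (adjusted p = 0.0107). In β cells at 1wk Dox, Spi1, Irf8, and Maf went from 2.25, 2.72, and 2.23 to −1.04, −1.31, and −1.38 without No Dox replicates 1 and 2, with no call in either case. In MΦs at 1wk Dox, the 2 members differentially expressed and the 3 with an adjusted p under 0.05 became 0 and 0 without the trend on the spread, with the replicate block, and with only the 2 groups fitted, and they ranged from 0 to 2 and from 0 to 3 with 1 library left out. The genes differentially expressed in that comparison were 340, against 52 without the trend, 38 with only the 2 groups, and 3 with the block. In MΦs at 1wk WD, the 1 member became 0 with no filter on low scores, without the trend, with the replicate block, and with only the 2 groups, and ranged from 0 to 1 with 1 library left out, while the gene count of 94 became 37, 11, 43, and 49, and 23, 23, and 33 without 1wk WD replicates 2, 3, and 4. In ECs at 1wk WD, the 1 member became 0 without the trend and with the replicate block, and ranged from 0 to 1 with 1 library left out. The gene count of 250 there was 76 without the trend, and 76, 138, and 75 without No Dox replicates 1, 2, and 3. For ECs against β cells at No Dox, the 3 members differentially expressed were 7, and the 3 with an adjusted p under 0.05 were 8, without β cell replicates 1 and 2, and the latter count ranged from 3 to 8 with libraries left out (5 without replicate 2). In the comparison of withdrawal responses, a pseudocount of 20 took both counts from 0 to 1 (Spic, adjusted p = 0.0359), and the second ranged from 0 to 1 with 1 library left out. In β cells, every alternative gave 0 members, and the gene counts of 2 at 1wk Dox and 0 at 1wk WD were 80 and 14 without No Dox replicates 1 and 2 (26 at 1wk Dox without replicate 2 alone). From 1wk Dox to 1wk WD in MΦs the gene count of 13 ranged from 0 to 79, and that of the withdrawal responses, 219, from 92 to 362. The cause was not tested for any of these.

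Within a cell type, samples with the same replicate number at different time points did not consistently deviate together. Their correlations were of both signs, for example 0.0315, −0.111, 0.0594, and −0.117 for MΦs at No Dox and 1wk WD. In β cells they ranged from −0.48 to 0.339. The numbers were therefore not taken to pair samples within a cell type, and the block values above stand only as an alternative. Pairing between cell types was not tested, and fits that join cell types treated libraries as independent. The acinar sum at 1wk WD was highest in replicate 1 in β cells (479580), ECs (52060), and MΦs (170749). At No Dox it was highest in replicate 2 in ECs (1460389) and MΦs (9853485), but lowest there in β cells (26435). Depth is unknown, and scores near 1, as of Spic in ECs, carry no measured precision.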

Other observations

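Il34 encodes the other ligand of CSF1R, and its values were looked at after the Csf1 values were seen. In β cells it scored 69, 17, 1813, and 5329 without Dox. With Dox it scored 2449, 1029, 1434, 2625, and 926, and after withdrawal 4583, 4155, and 326. In MΦs it scored 20 to 86 at all time points, and in ECs 150 to 545. The 2 No Dox β cell libraries with Il34 at 69 and 17 were those with Ptprc at 33 and 7 and with the lowest stromal sums, 945 and 1026, in which Csf1 was still 706 and 721.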
